A study of Mus musculus with 12 samples.

Results

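The clustered protocadherin genes are 57 of the 21755 protein-coding genes that GENCODE M21 places on the mouse autosomes and chromosome X. The rule that chose them uses position and name and no read count: they are the protein-coding genes of mm10 chromosome 18 whose symbol begins with Pcdha, Pcdhb or Pcdhg followed by a letter or number. They fall into 3 subclusters that follow each other on the plus strand. Pcdha holds 14 genes from Pcdha1 to Pcdhac2 (chr18:36930184-37187661), Pcdhb holds 22 genes from Pcdhb1 to Pcdhb22 (chr18:37264938-37524479), and Pcdhg holds 21 genes from Pcdhga1 to Pcdhgc5 (chr18:37661793-37841873). In this annotation 2 genes carry the symbol Pcdha11, and both were kept. With 500 kb on either side the region covers 1912 of 2633767 bins of 1 kb, and it also holds the transcription start sites (TSSs) of 34 other protein-coding genes.

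Protocadherins of these clusters are cell-surface adhesion proteins that give single neurons a molecular identity. In Pcdha and Pcdhg each gene has its own promoter and its own large variable exon, which is spliced to constant exons shared by the whole subcluster, while the Pcdhb genes are single-exon genes without a shared constant part. Neurons choose among these promoters at random in a process that involves CTCF and cohesin, and a few genes at the ends of Pcdha and Pcdhg, the C-type isoforms, are known to be used more uniformly. That choice is known from neurons, and the measurements below, from stem cells, describe how the DNA of the clusters is replicated and not whether the genes are read.

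Okazaki fragment sequencing (OK-seq) was done in naive embryonic stem cells (ESCs), kept in LIF with both kinase inhibitors (2i), and in epiblast-like cells (EpiLCs, formative in the labels), obtained by withdrawing them. Each state was measured in the KMT2C KO control, in the double knockout KMT2C/D dKO and in the double catalytic-dead KMT2C/D dCD. KMT2C and KMT2D are the methyltransferases that place H3K4me1 on enhancers, and all 3 genotypes lack KMT2C or its activity, so no wild-type cells were compared. Per the methods, KMT2D is removed by a tamoxifen-induced Cre in a mixed-background line, whereas the catalytic-dead line has another, single-strain origin, so in every dCD comparison the mutation and the line cannot be told apart. The labels list 2 replicates per condition, 12 samples in all, but the deposited tracks hold their sum, so there are 6 libraries, no spread between replicates and no p-value. Every interval below is a 95% interval of counting error only, PCR copies are not independent molecules, and a difference compares libraries and not conditions.

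The naive libraries held 3655095 to 4409068 reads and the EpiLC libraries 11407678 to 13601460. From Pcdha1 to Pcdhgc5 there were 1246 to 1595 reads in the naive and 4321 to 4950 in the EpiLC libraries. At this depth the reads do not resolve a small deletion or a point mutation. Kmt2c and Kmt2d had read densities of 0.914 to 1.25 times those of their 200 kb neighbourhoods in all 6 libraries, so these values do not check the genotype labels. Chromosome 18 took 0.960 and 0.961 times the control's share of reads in the naive and EpiLC dCD libraries, against 1.01 times in both dKO libraries.

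Okazaki fragments come from the lagging strand, and the share of reads on the Crick strand (the Crick percentage) is the share of forks that move from left to right in genome coordinates. Along a chromosome it rises where forks start, falls where they meet, and lies at 50% where both directions are equally common. The first comparison asks in which direction the forks cross each subcluster. Forks ran rightward through Pcdha and leftward through Pcdhb in all 6 libraries. In the naive control 65.0% of reads in Pcdha were on the Crick strand (60.3 to 69.3), with 66.1% in dKO and 73.0% in dCD. The EpiLC libraries gave 62.1% in the control, 67.0% in dKO and 67.6% in dCD. In Pcdhb the naive libraries gave 36.2% in the control (31.8 to 40.9), 33.1% in dKO and 30.1% in dCD, and the EpiLC libraries 40.8%, 38.7% and 36.4%. The lowest Pcdha and the highest Pcdhb value, both of the EpiLC control, lay 21.4 points apart, and no interval of either subcluster included 50%.

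The difference between Pcdha and Pcdhb was 28.8 percentage points in the naive control (22.2 to 34.9), 33.0 in naive dKO and 43.0 in naive dCD. It was 21.4 in the EpiLC control (17.3 to 25.3), 28.3 in EpiLC dKO and 31.1 in EpiLC dCD. Across the genome, pairs of 250 kb windows with the same spacing of 334 kb had a higher first window, with an interval without 0, in 31.7% of pairs in the naive control, 31.5% in naive dKO, 35.3% in naive dCD, 35.9% in the EpiLC control, 37.5% in EpiLC dKO and 41% in EpiLC dCD. A higher first window at such a distance is thus common. The size seen here was less common: 0.849% of pairs in the naive control and 0.256% in EpiLC dKO had a difference at least as high, and the share was 1.34% where it was largest, in the EpiLC control.

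Base composition moved with this difference. EdU is a thymidine analog, and in every library bins with more T than A on the reference strand had more Crick reads. Pcdha has an excess of T over A of 4.92% of its bases and Pcdhb a deficit of 2.63%. The part of the reads that tracks this content was estimated in each library and removed, here called the T minus A correction. After it, the difference between Pcdha and Pcdhb was 14.4 to 30.6 points over the 6 libraries, and each interval remained above 0. So corrected, Pcdha read 58.0% to 66.0% and Pcdhb 35.4% to 43.6%.

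**Figure D1:**
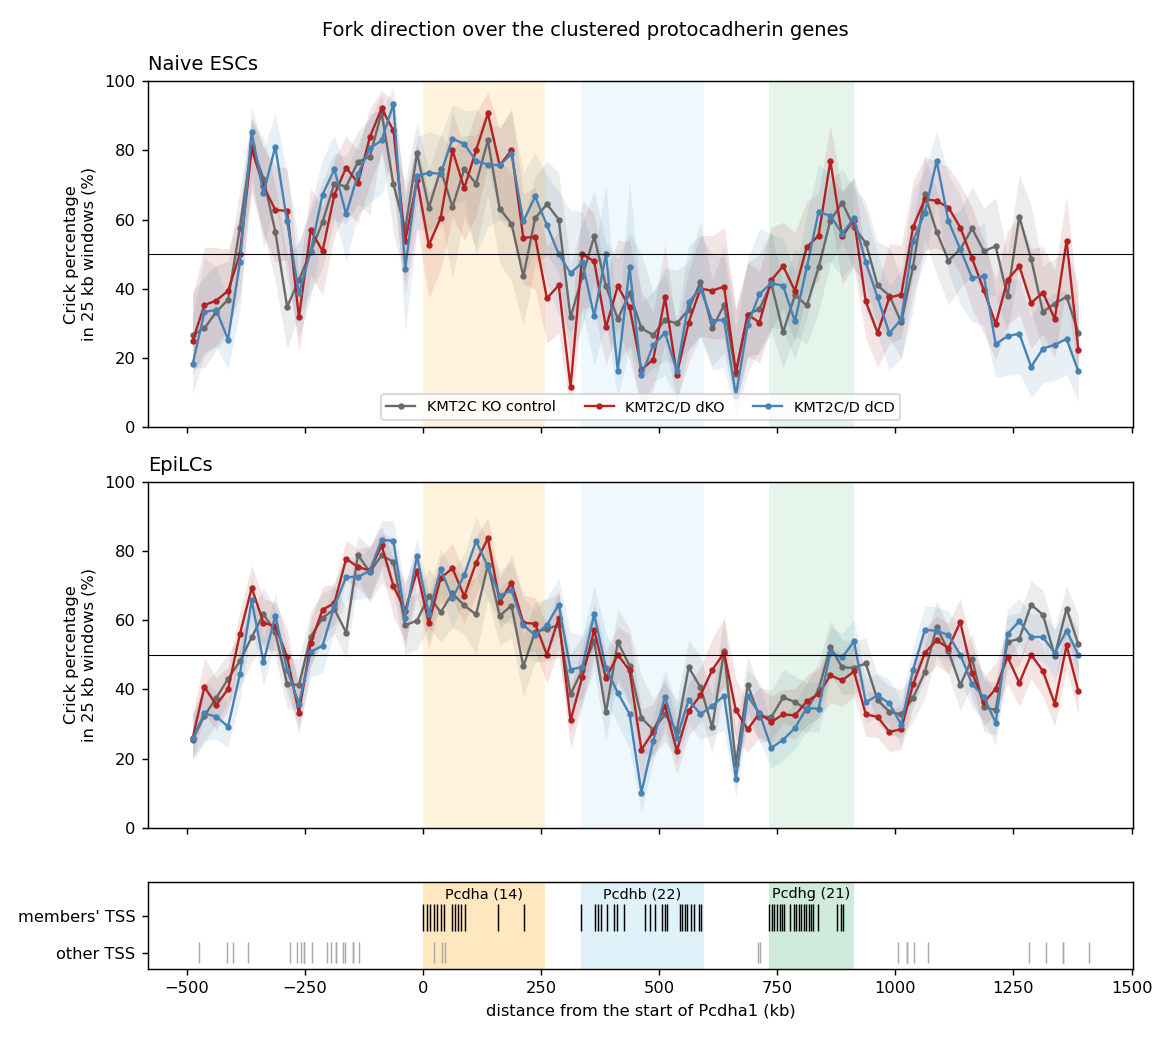
Crick percentage (y axis, %) in 25 kb windows against the distance from the start of Pcdha1 (x axis, kb) in naive ESCs (top) and EpiLCs (middle), one line per genotype with shaded 95% Wilson intervals, and the TSSs of members and other genes (bottom, subclusters shaded, number of genes in brackets). The lines lie above 50% over most of Pcdha, below it over most of Pcdhb, and rise again through Pcdhg.

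Along the region the profile was alike in the 6 libraries. Over 76 windows of 25 kb, Pearson's r between libraries ranged from 0.662 to 0.898, as a description of profiles that share the genome's base composition. On the left flank Crick percentage climbed from 18.2% to 26.7% in the outermost window to a maximum of 78.8% to 93.3%, and its slope was 8.04 to 10.9 points per 100 kb. A fall stood before the cluster: the 6 libraries read 69.9% to 93.3% in the window centred 62.5 kb before Pcdha1 and 45.8% to 62.7% in the next one. At the termination zone called there in naive cells (at -48 kb) the EpiLC mean of the strand bias, defined below, was -23.3 points as counted and -4.38 after the T minus A correction, where its interval included 0. Within Pcdha the slope was between -6.36 and -0.69 points per 100 kb, and its interval lay below 0 in the naive control, EpiLC control and EpiLC dCD only. The highest Pcdha window was centred at 137.5 kb in 4 of the 6 libraries, between Pcdha12 and Pcdhac1, and read 90.6% in naive dKO.

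The fall continued through Pcdhb. Its slope was -5.99 points per 100 kb in the naive control, -8.93 in naive dKO and -5.19 in naive dCD, and -6.86, -9.73 and -9.24 in the EpiLC control, dKO and dCD. The interval lay below 0 in naive dKO and in all 3 EpiLC libraries. The lowest Pcdhb window was centred at 487.5 kb in the naive control and at 537.5 kb in naive dKO, the EpiLC control and EpiLC dKO. In both dCD libraries it was that centred at 462.5 kb, which holds the TSS of Pcdhb9. There naive dCD read 15% of 20 reads and EpiLC dCD 10.2% of 49 reads. In the gap between Pcdhb and Pcdhg, which holds Slc25a2, a mitochondrial carrier, and Taf7, a subunit of the general transcription factor TFIID, the 6 libraries read 31.1% to 36.6%, so leftward forks covered the gap as they covered Pcdhb.

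Pcdhg was the subcluster with a rising profile. Its slope was 24.4 points per 100 kb in the naive control (14.4 to 34.4), 14.2 in naive dKO and 21.01 in naive dCD. In EpiLCs it was 12.7 in the control (6.58 to 18.8), 10.3 in dKO and 19.8 in dCD. All 6 intervals were above 0. The corrected slopes were 7.07 to 19.0, and the interval of naive dKO then included 0 (10.1, -0.829 to 20.99). The highest Pcdhg window was centred at 862.5 kb, just before the C-type genes, in naive dKO and all 3 EpiLC libraries. It was that at 887.5 kb, which holds the TSSs of Pcdhgc3, Pcdhgc4 and Pcdhgc5, in the naive control, and that at 837.5 kb, which holds the TSS of Pcdhga12, in naive dCD.

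The place where the direction turns was taken as the point up to which the excess of Crick over Watson reads, summed from Pcdha1, is largest, a measure that was added after the profile had been seen. Rightward and leftward forks met in or beside the gap between Pcdha and Pcdhb. The crossing lay 288 kb from Pcdha1 in the naive control, 255 kb in naive dKO and 265 kb in naive dCD, and 299 kb in the EpiLC control and EpiLC dKO and 370 kb in EpiLC dCD. Pcdha ends at about 258 kb, so the naive dKO crossing was 3 kb inside its last bins and that of EpiLC dCD 36 kb inside Pcdhb. With the T minus A correction the crossing lay inside Pcdhb in 5 of 6 libraries, with a range of 255 to 382 kb. Past that point the summed excess was lowest 847, 802 and 823 kb from Pcdha1 in the naive control, dKO and dCD and 899, 891 and 883 kb in the same EpiLC libraries, all inside Pcdhg, but the sum ends with the cluster and in EpiLCs few bins are left behind that point. Of the 7 windows of 25 kb in Pcdhg, 2 read above 50% in the naive control, 4 in dKO and 3 in dCD. In EpiLCs it was 1, 0 and 1 of 7, with highest values of 52.2%, 44.1% and 50.6%.

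**Figure D2:**
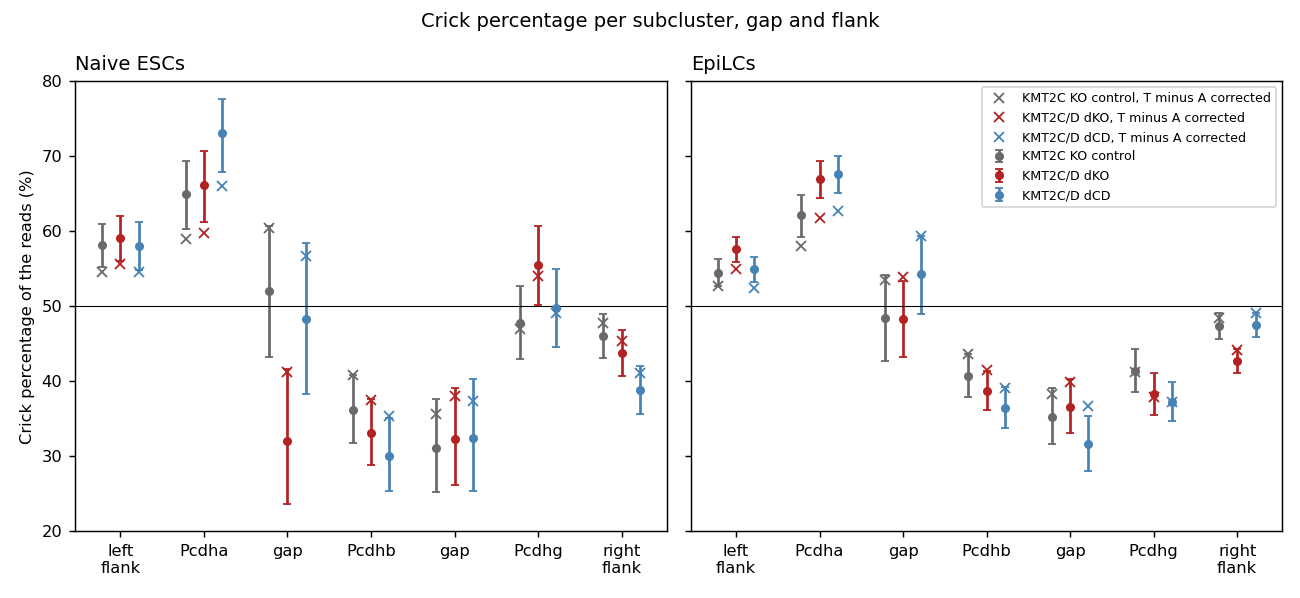
Crick percentage (y axis, %) of all reads in each subcluster, gap and flank (x axis) in naive ESCs (left) and EpiLCs (right), as points with 95% Wilson intervals, and as crosses after the T minus A correction. Pcdha lies above and Pcdhb below 50% in all 6 libraries, while Pcdhg lies at 47.8% to 55.5% in the naive and 37.3% to 41.4% in the EpiLC libraries.

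The second comparison asks whether fork direction over the clusters differed between naive ESCs and EpiLCs. Pcdhg carried the largest differences. It read 47.8% in the naive control, 55.5% in naive dKO and 49.7% in naive dCD, against 41.4%, 38.2% and 37.3% in the EpiLC libraries. The naive values therefore all lay above the EpiLC values. EpiLC minus naive was -6.40 points in the control (-12.0 to -0.76), -17.3 in dKO (-23.2 to -11.2) and -12.5 in dCD (-18.3 to -6.62). The last 2 were the only differences among 21 over the subclusters whose interval still lacked 0 after it was widened for 21 comparisons, while 11 of 21 lacked 0 at 95%. Among all 250 kb windows of the genome the interval lacked 0 in 25.9% for the control, 21.4% for dKO and 36.6% for dCD. A difference at least as large as that of Pcdhg was found in 20.4% of the windows in the control, 0.206% in dKO and 5.09% in dCD. These windows are longer than Pcdhg (181 kb), which was singled out for its large differences, so the shares are not like for like.

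The control's difference in Pcdhg was near the threshold. After the T minus A correction it was -5.61 (-11.3 to 0.0142), and from the first to the last TSS, without the end of Pcdhgc5, it was -3.18 (-9.27 to 2.81). Within Pcdhg the gap between states was widest in its second part: in the window centred at 862.5 kb, naive dKO read 76.9% and EpiLC dKO 44.1%, and in that centred at 837.5 kb, naive dCD read 62.2% and EpiLC dCD 34.4%. In the naive libraries Pcdhg also lay above Pcdhb, by 11.6 points in the control (4.85 to 18.1), 22.4 in dKO and 19.7 in dCD. In EpiLCs the same differences were 0.619 (-3.44 to 4.67), -0.455 and 0.811, and all 3 intervals included 0. After correction, that of the naive control included 0 too (6.06, -0.686 to 12.7).

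Pcdhb was higher in EpiLCs, that is, less strongly leftward. The difference was 4.54 points in the control (-0.903 to 9.81), 5.60 in dKO (0.329 to 10.6) and 6.39 in dCD (0.613 to 11.8). The last 2 lost their side of 0 under the T minus A correction, at 3.94 (-1.43 to 9.13) and 3.71 (-2.22 to 9.38). The naive libraries also had a wider spread of Crick percentage over the whole genome (an SD over 50 kb bins of 12.6 to 16.5 points beyond counting error, against 9.72 to 12.2 in EpiLCs). This spread is here called the amplitude of a library. For division by the amplitude, the first library of a difference (EpiLC or mutant) was rescaled to the second. Its deviation from 50% was divided by the ratio of its amplitude to that of the second library, which stayed as counted. The dKO and dCD differences in Pcdhb were then 2.81 (-2.80 to 8.21) and 1.72 (-4.54 to 7.70). In Pcdha the differences between states were -2.85, 0.822 and -5.48 points in the control, dKO and dCD, and all 3 intervals included 0. Their widest bounds were -10.7 and 6.31, so a difference of several points in either direction was not detectable at this depth.

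Single 50 kb windows gave a like picture. Of the 18 windows from Pcdha1 to Pcdhgc5, 2 had an interval without 0 between states in the control, 4 in dKO and 3 in dCD. Over the genome these shares were 15.2%, 11.5% and 18.8% of windows, beside 11.1%, 22.2% and 16.7% of the cluster windows, so the counts in the control and dCD did not exceed the background. Of the 10 windows on the right flank 5, 2 and 5 had such an interval. The right flank as a whole differed in dCD, at 38.8% in naive and 47.5% in EpiLC cells (8.67 points, 5.08 to 12.2), and that difference turned sign when only the nearer 250 kb of the flank were taken (-4.81, -9.77 to 0.148). The flank beyond Pcdhg therefore did not move as one block. Its slope was -6.57 to -1.42 points per 100 kb in naive and 2.52 to 4.76 in EpiLC libraries.

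**Figure D3:**
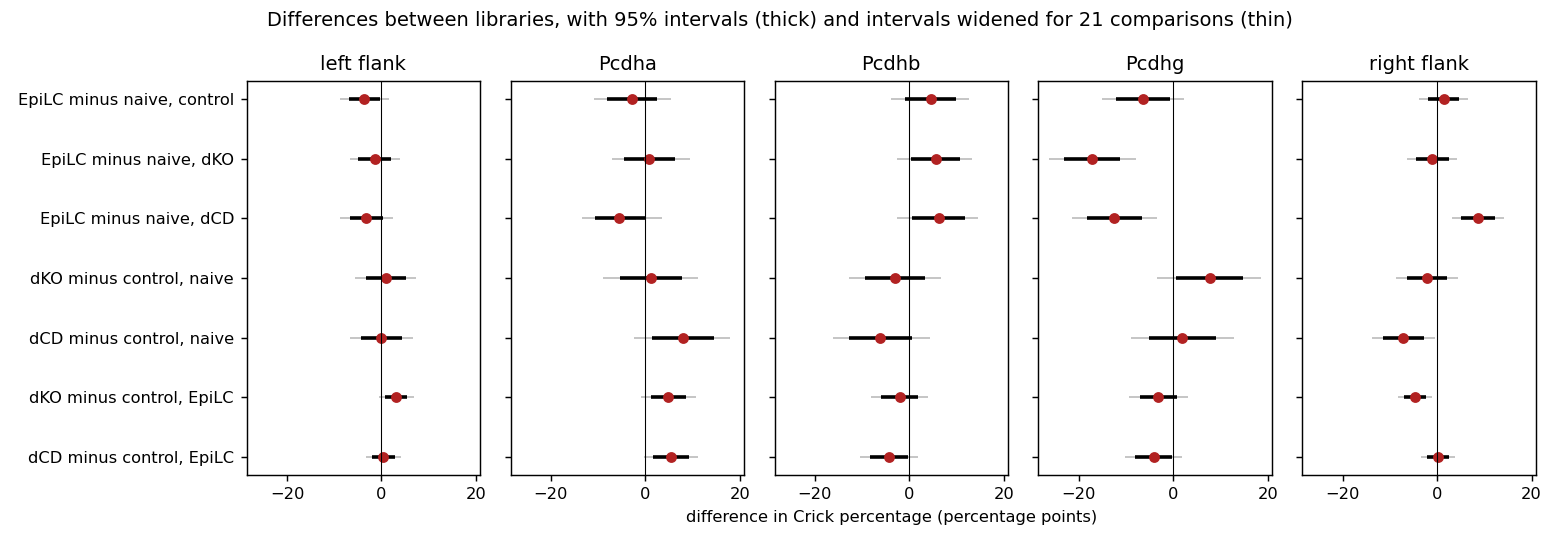
Difference in Crick percentage (x axis, percentage points) for the 7 comparisons between libraries (y axis) in each subcluster and flank, as points with 95% intervals (thick lines) and intervals widened for 21 comparisons (thin lines). In Pcdhg the EpiLC minus naive differences of dKO (-17.3) and dCD (-12.5) keep their widened intervals below 0.

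The third comparison asks whether the loss of KMT2D, or of the catalytic activity of both enzymes, went with another fork direction over the clusters. Pcdha was more strongly rightward in 3 of the 4 comparisons of a mutant with its control. In EpiLCs dKO lay 4.85 points above the control (1.10 to 8.59) and dCD 5.45 points above it (1.72 to 9.17). In naive cells dCD lay 8.08 points above the control (1.35 to 14.6), and dKO differed by 1.17 points (-5.39 to 7.68). None had an interval without 0 once it was widened for 21 comparisons. Over all 250 kb windows the interval lacked 0 in 13.2% for naive dKO, 30.2% for naive dCD, 17.3% for EpiLC dKO and 31.5% for EpiLC dCD. Such differences were thus not rare in these libraries: 22.4% of windows in naive dCD, 17.5% in EpiLC dCD and 11.7% in EpiLC dKO differed at least as much as Pcdha.

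The amplitude of the whole library moved with these differences. It was 12.6 points in the naive control, 13.2 in dKO and 16.5 in dCD, and 9.72, 10.6 and 12.2 in the EpiLC libraries. With the mutant rescaled to the amplitude of its control, the Pcdha difference was 2.67 (-3.19 to 8.47) for naive dCD. It was 3.40 (-0.197 to 7.01) for EpiLC dKO and 1.83 (-1.57 to 5.25) for EpiLC dCD, and all 3 intervals included 0. The EpiLC dKO difference also lost its side of 0 after the T minus A correction (3.71, -0.124 to 7.54).

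In Pcdhb 1 of the 4 comparisons passed, and there forks were more strongly leftward. EpiLC dCD lay 4.31 points below the control (-8.26 to -0.341), and divided by the amplitude the difference was -1.51 (-5.11 to 2.07). The other Pcdhb differences were -3.12 points in naive dKO, -6.16 in naive dCD and -2.06 in EpiLC dKO, and their intervals included 0. In Pcdhg naive dKO lay 7.75 points above the control (0.513 to 14.9) and EpiLC dCD 4.12 points below it (-8.01 to -0.215). The Pcdhg difference of naive dKO was 7.10 (-0.141 to 14.2) after the T minus A correction, and that of EpiLC dCD was -1.49 (-5.05 to 2.06) when divided by the amplitude. In all, 6 of the 12 subcluster differences between mutant and control had an interval without 0 and 0 of 12 after widening.

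Of the 18 cluster windows of 50 kb, 2 (11.1%) were told apart from the control in naive dKO and 0 in naive dCD, where 8.42% and 13.9% of all windows passed. In EpiLCs it was 1 (5.56%) in dKO and 4 (22.2%) in dCD, beside 9.85% and 15.5% of all windows. With 25 kb windows the EpiLC dKO count was 6 of 36 (16.7%), beside 8.01% of all windows. In the gap between Pcdha and Pcdhb, which holds no TSS of a protein-coding gene, naive dKO read 32.0% and the naive control 52.0% (-20.03 points, -32.0 to -6.99). That value rests on 100 reads in dKO and 123 in the control. The flanks differed in a few libraries only: EpiLC dKO lay 3.11 points above the control on the left flank (0.704 to 5.52; 2.30, -0.121 to 4.71, after the T minus A correction) and 4.63 points below it on the right (-6.97 to -2.29), and naive dCD lay 7.15 points below it on the right (-11.4 to -2.81). Widened for 21 comparisons, the intervals of both right-flank differences still lacked 0 (-8.25 to -1.003 and -13.8 to -0.422), while those of the gap (-37.9 to 0.167) and of the left flank (-0.619 to 6.84) included it. In the nearer 250 kb of the right flank the differences were -0.871 (-4.12 to 2.38) in EpiLC dKO and 0.976 (-5.03 to 6.98) in naive dCD.

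The single members were compared by the strand bias at their TSS, the Crick percentage of the 25 kb to the right of the TSS minus that of the 25 kb to its left. A positive value marks net initiation across the TSS. The members lie close together, so neighbouring windows share reads and the 57 values are not independent. All 57 had at least 10 reads on each side in every library. Their median was 3.68 points in the naive control, 3.78 in dKO and 4.44 in dCD, beside 6.28, 6.30 and 6.59 for all protein-coding genes. In EpiLCs it was 1.17, 1.95 and 3.31, beside 4.15, 4.58 and 4.73. The members' median was thus lower than that of all genes in each of the 6 libraries, and it stayed so in 5 of them after the T minus A correction (0.321, 2.18, -0.861, 1.07 and 1.02, beside 3.05, 3.23, 2.04, 2.05 and 2.26). The exception was naive dCD, with 3.49 for the members and 3.38 for all genes.

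Few members stood out one by one. The interval lay above 0 at 2 members in the naive control, 6 in naive dKO and 3 in naive dCD, where 19.9%, 17.7% and 19.3% of all TSSs passed. It did so at 7, 7 and 9 members in the EpiLC control, dKO and dCD, where 20.5%, 24.7% and 26.3% passed, so 3.51% to 15.8% of the members had such an interval. After the T minus A correction the counts were 0, 0 and 2 in the naive and 2, 2 and 4 in the EpiLC control, dKO and dCD, beside 9.98%, 8.8%, 10.1%, 10.7%, 12% and 14.1% of all TSSs. Below 0 the counts were 1, 0 and 1 in naive and 2 in each EpiLC library, beside 3.59%, 3.24%, 3.16%, 3.39%, 4.13% and 4.26% of all TSSs. As counted, 7 of the 57 members were above 0 in all 6 libraries and 1 was below 0 in all 6, beside 30.9% and 4.69% of all TSSs. Besides Pcdha12, Pcdhb9 and Pcdhgc5, described below, the 7 were Pcdhb12, Pcdhb16, Pcdhb17 and Pcdhb18, named here after their values had been seen. Their means over the 6 libraries were 13.8, 11.4, 12.98 and 14.7 points, and 3.81, -0.351, -0.709 and 4.57 after the T minus A correction. The TSSs of these genes differ in CpG content too. Within 500 bases of the TSS the median was 35.5 CpGs in Pcdha, 15 in Pcdhb and 33 in Pcdhg, against 41 for all protein-coding genes.

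In Pcdha the highest mean strand bias belonged to Pcdha12 (TSS chr18:37020149). It was 26.6 points in the naive control, 13.1 in naive dKO and 19.0 in naive dCD, and 19.5, 14.3 and 13.9 in the EpiLC control, dKO and dCD, a mean of 17.7. All 6 values were above 0, 4 of them with an interval above 0. After the T minus A correction, however, the mean over the 6 libraries was -2.01. The lowest mean in Pcdha was that of the first gene, Pcdha1, with -15.8, -18.8 and 1.03 points in naive and 7.10, -15.2 and -16.9 in EpiLC libraries. Its values had no common sign, and the mean went from -9.76 to -2.54 after the T minus A correction. The C-type genes Pcdhac1 and Pcdhac2, the latter the last gene of the subcluster, had means of 4.23 and 4.68, and of 4.27 and 0.145 after correction.

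In Pcdhb the highest mean was at Pcdhb9 (TSS chr18:37400855). Its values were 17.3, 14.03 and 13.9 points in the naive control, dKO and dCD and 2.24, 19.4 and 23.0 in the EpiLC libraries, a mean of 14.98 with 6 of 6 above 0. This TSS has 6 CpGs within 500 bases, and after the T minus A correction its mean was -5.63. The lowest mean was that of Pcdhb3, with -10.9, -8.70 and 12.6 points in naive and -18.3, -11.2 and -19.5 in EpiLC libraries. Its EpiLC values were all negative, 2 of them with an interval below 0, and its mean went from -9.34 to -2.10 after the T minus A correction. The first gene, Pcdhb1, had a mean of 6.35 (2.11 after correction) and the last, Pcdhb22, a mean of -6.31 (0.0809 after correction), with all 6 values below 0 as counted and all 6 intervals including 0.

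In Pcdhg the last gene, Pcdhgc5 (TSS chr18:37819513), a C-type gene, had the highest mean. Its values were 16.4, 6 and 8.93 points in the naive control, dKO and dCD and 5.91, 11.6 and 16.0 in the EpiLC libraries, a mean of 10.8. All 6 were above 0, 2 with an interval above 0, both in EpiLCs. In contrast to Pcdha12 and Pcdhb9, the mean was 9.67 after the T minus A correction. The neighbouring C-type genes were Pcdhgc4, with a mean of 5.88 (7.92 after correction), and Pcdhgc3, the lowest of the subcluster as counted, with -2.34 (1.37 after correction) and values from -17.9 to 9.55. The first gene, Pcdhga1, ranged from -21.7 in naive dCD to 21.7 in naive dKO, and its mean was -1.27 as counted and -2.59 after correction. In EpiLCs the 21 Pcdhg genes lay closer together, from -8.34 to 17.6 points, than in the shallower naive libraries, from -21.7 to 24.5.

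**Figure D4:**
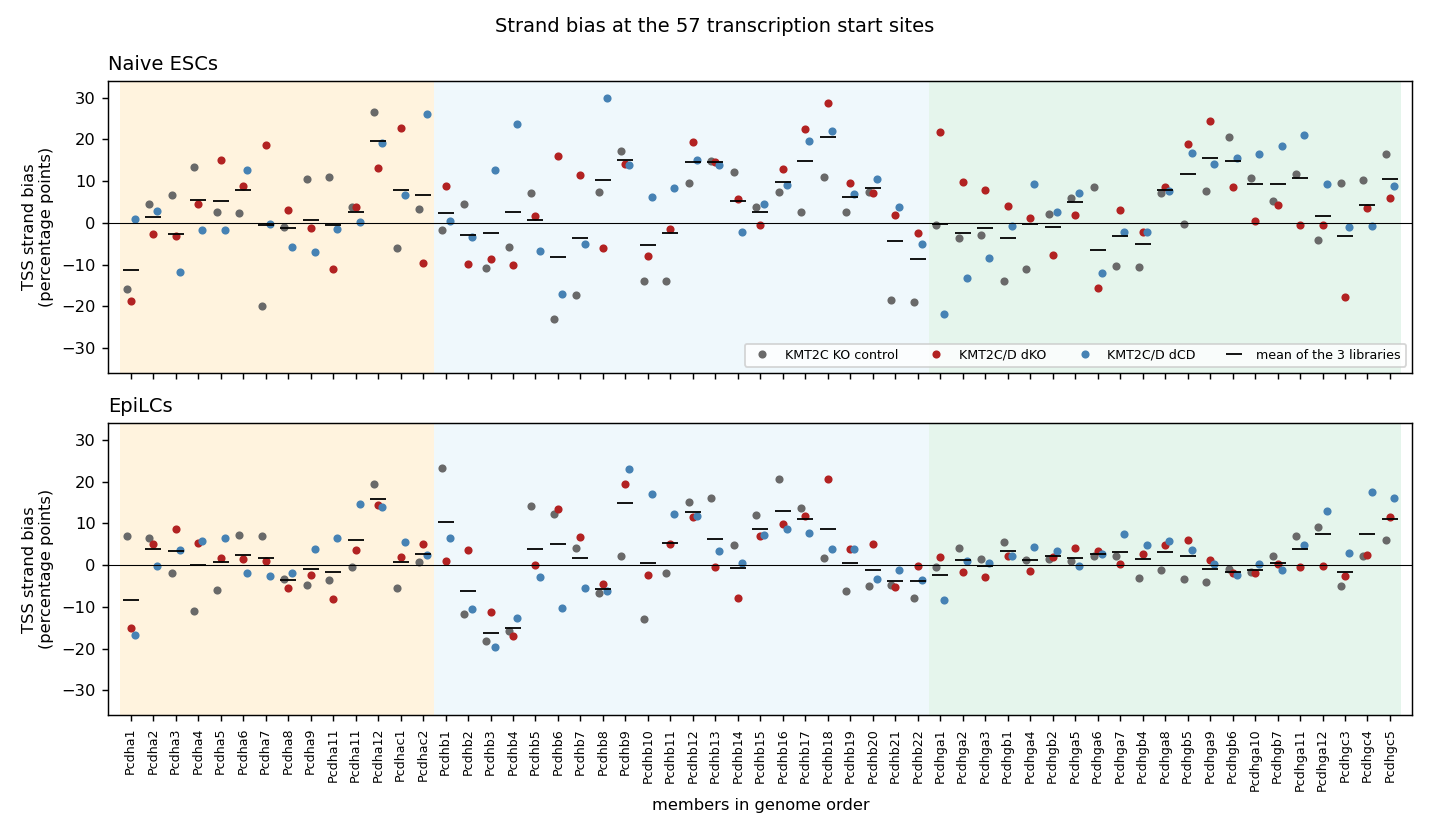
Strand bias at the TSS (y axis, percentage points) of the 57 members in genome order (x axis) in naive ESCs (top) and EpiLCs (bottom), one point per genotype and a dash for the mean of the 3, with subclusters shaded. Pcdha12, Pcdhb9 and Pcdhgc5 are among the 7 members above 0 in all 6 libraries, and most others have values on both sides of 0.

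The other genes of the flanks had medians of 6.58 to 13.2 points on the left (19 genes) and 4.74 to 12.03 on the right (10 genes), above the members' median in each library, a difference that was not tested. On the left flank E230025N22Rik had the highest mean, 21.6 points, with 6 of 6 intervals above 0 and a mean of 16.4 after the T minus A correction, and AC115631.1 the lowest, -10.1 (-7.29 after correction). On the right flank Hdac3, a histone deacetylase, and its neighbour Rell2 shared one window and a mean of 15.3 (8.32 after correction), and Dele1 had the lowest, -4.16 (-4.49 after correction). The 12 protocadherin genes outside the clusters had medians of 11.5, 7.98 and 3.36 points in the naive and 11.9, 5.93 and 7.70 in the EpiLC libraries, and 1 to 5 of the 12 had an interval above 0. The 12 genes for factors known to act on the clusters, among them Ctcf, Rad21, Smc3 and Smchd1, had medians of 15.3, 20.05 and 13.4 in naive and 10.3, 6.26 and 6.66 in EpiLC libraries, and 5 of 12 had an interval above 0 in each library. The highest mean was that of Smchd1, a repressor of the clusters and of the inactive X, with 32.6 points (19.4 after correction) and 6 of 6 values above 0, and the lowest that of Setdb1, a histone H3K9 methyltransferase, with -5.85 (-7.32 after correction) and 2 of 6 above 0, both named after their values had been seen. These lists are small and their values are not all independent. Pcdh1 and Pcdh12 are also among the right-flank genes. On the left flank Slc35a4 and Apbb3, Ndufa2 and Ik, and Hars2 and Hars have the same values in each pair. The differences from the members were not tested.

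Zones of initiation were taken as maxima of at least 10 points in strand bias, averaged over the genotypes of one state, and were then measured in the other state, whose reads had no part in the call. Zones of termination, the minima, were added after the data had been seen. In the region 23 initiation zones were called in naive cells, 15 of them from Pcdha1 to Pcdhgc5, and 18 in EpiLCs, 10 of them in the clusters. Of the 23, 16 had an interval above 0 in EpiLCs, and of the 18, 15 had one in naive cells, where 47% and 54.3% of all zones of the genome did. For termination 13 of 22 and 11 of 14 lay below 0 in the other state, beside 46.1% and 49.7%. Within the clusters 8 of 15 naive zones (53.3%) had an EpiLC initiation zone within 5 kb, and these were 8 of 10 EpiLC zones (80%), against 29.7% and 47.8% over the genome. Of the termination zones in the clusters, 7 of 13 naive ones (53.8%) and 6 of 8 EpiLC ones (75%) lay below 0 in the other state.

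Most of these recurring zones were lost after the T minus A correction, as zones were over the genome, where 21% of naive initiation zones then had an interval above 0 in EpiLCs and 24% of EpiLC zones in naive cells. Of the 15 naive initiation zones in the clusters, 10 had an interval above 0 in EpiLCs as counted and 2 after correction, while on the flanks it was 6 and 5 of 8. Of the 10 EpiLC zones in the clusters the counts were 9 and 1 in naive cells, and of the 8 EpiLC zones on the flanks 6 and 2. At the zone next to Pcdha12 (chr18:37022000), called at 21.8 points in naive cells, the EpiLC mean was 17.2 as counted and -2.20 after correction. At that next to Pcdhb9 (chr18:37401000) it was 14.9 and -2.27. Both zones that held in the clusters lay in Pcdhg. At chr18:37773000 the EpiLC libraries gave 18.7, 10.7 and 19.95 points in the control, dKO and dCD, a mean of 16.4 as counted and 10.4 after correction. The matching zone called in EpiLCs (842 kb) read 17.6 in naive cells as counted and 9.16 after correction, where the interval included 0. At chr18:37821000, next to Pcdhgc5, they gave 6.26, 11.3 and 18.4, a mean of 11.98 as counted and 10.4 after correction.

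Once corrected, 2 of the 13 naive termination zones in the clusters and 1 of the 8 EpiLC ones had an interval below 0 in the other state, beside 16.6% and 15.7% over the genome. One of them, inside Pcdha, held in both directions. At chr18:37120000, between Pcdhac1 and Pcdhac2, the EpiLC libraries gave -23.7, -23.9 and -18.9 points and the naive libraries -29.4, -38.0 and -36.5. The means after the T minus A correction were -10.1 in EpiLCs and -15.1 in naive cells, with both intervals below 0. The deepest termination zone between Pcdhb and Pcdhg, at 645 kb, read -29.0 points in EpiLCs as counted and -2.76 after correction. Near the convergence of forks between Pcdha and Pcdhb (302 kb), the EpiLC mean was -19.5 as counted and -9.47 after correction, with an interval below 0 in both. The matching zone called in EpiLCs (299 kb) read -23.1 in naive cells as counted and -5.12 after correction, where the interval included 0. How far the T minus A content of the sequence and where forks start each shape these zones was not tested.

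**Figure D5:**
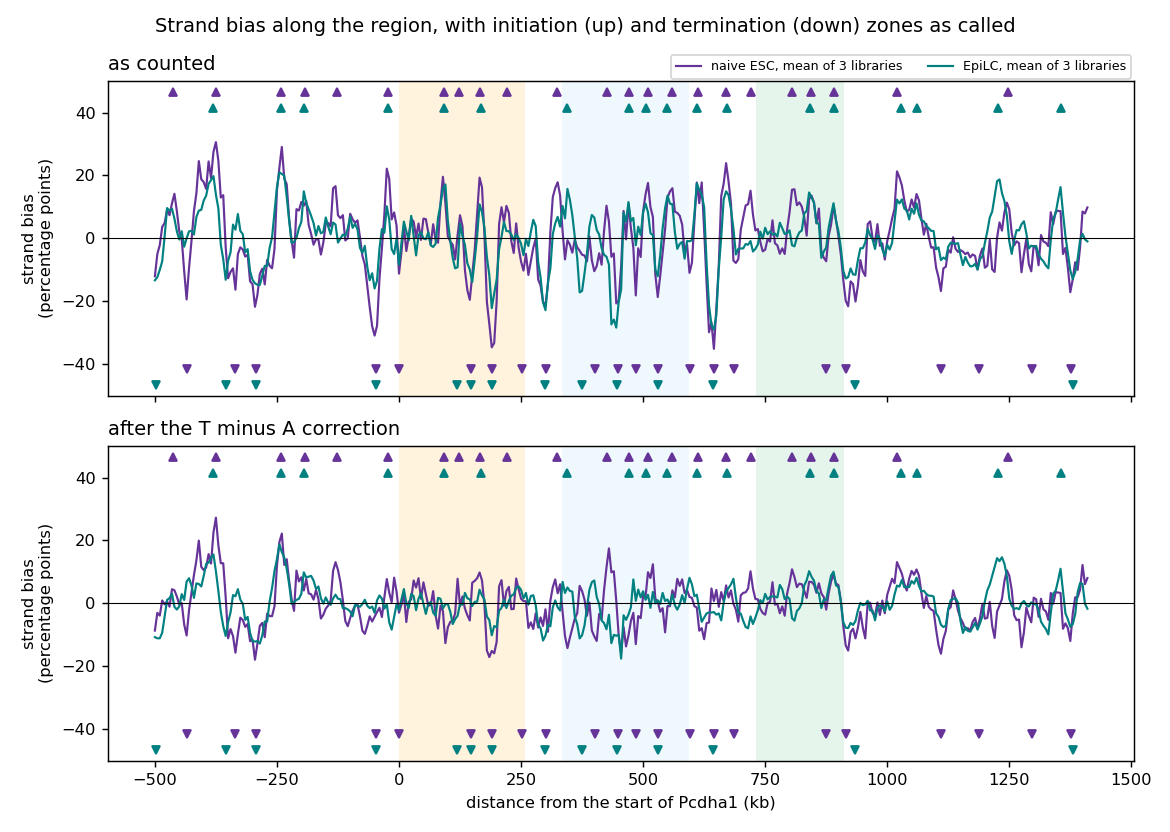
Strand bias (y axis, percentage points) every 5 kb against the distance from the start of Pcdha1 (x axis, kb), averaged over the genotypes in naive ESCs and in EpiLCs, as counted (top) and after the T minus A correction (bottom), with the called initiation (up) and termination (down) zones marked. Several swings in and between Pcdha and Pcdhb are smaller in the lower panel (in naive cells from -34.6 to -15.1 points at 190 kb and from -35.1 to 0.747 at 645 kb). Others are as large or larger (from -8.84 to -15.8 at 455 kb). In EpiLCs the left-flank rise at -241 kb (21.4 points as counted and 17.3 after correction) and the Pcdhg rises at 843 and 891 kb are seen in both panels. The left-flank rise at -23 kb goes from 14.5 to 0.466 points in EpiLCs.

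Read density set the subclusters apart in another way. Relative to the mean of chromosome 18 it was 0.898 to 1.04 in Pcdha, 0.873 to 1.05 in Pcdhb and 1.19 to 1.41 in Pcdhg, and 1.28 to 1.48 on the flanks. Every Pcdhg value thus lay above every value of Pcdha and Pcdhb. Against the right flank Pcdhg had no common order: it was 1.29, 1.19 and 1.41 beside 1.29, 1.28 and 1.31 in the naive control, dKO and dCD and 1.37, 1.26 and 1.39 beside 1.47, 1.41 and 1.48 in the EpiLC libraries. Pcdhb lay below the mean of the chromosome in EpiLC dCD (0.873, 0.824 to 0.924). GC content was 40.5% in Pcdha, 40.4% in Pcdhb and 45.1% in Pcdhg, beside 42.5% on the left and 47.3% on the right flank. Pcdha had 14 bins without a read in any library, or 5.43% of its bins, Pcdhb 13 and Pcdhg 0, beside 3.97% of all bins. The part of GC content, of replication time and of how well reads map between the similar exons of these genes was not tested. Member exons touch 56 of 258 bins in Pcdha, 114 of 261 in Pcdhb and 90 of 181 in Pcdhg, and without them the Pcdhg difference of naive dKO from the control was 3.59 points (-7.14 to 14.2).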

How the data were processed

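Per the labels and the methods, paired reads of 2 replicates per condition were trimmed (Trim Galore), aligned to mm10 with Bowtie2 and binned by strand. The authors deposited one track per condition, which gives the signal of either strand, Watson and Crick, as reads per bp over 2725511 bins of 1 kb. Times 1000, each value was a whole number of reads (largest deviation 0). The position was taken as the bin's end, since 0 reads then fell in 74135 bins of N only (3045 reads if taken as the start). Picard is among the tools of the submitters' processing notes, with no role given, and whether duplicates were removed is not given in the sources used here. In all, 83 bins with over 10 times the median were left out, 0 of them in the region.

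Crick percentage is C/(W+C), with Wilson and, for differences, Newcombe intervals. An interval without 0 was the threshold. For the T minus A correction, the Crick excess of each bin over its neighbours was fitted on its T minus A content (slopes of 1.03 to 1.53) and the fitted reads were moved to Watson. Genes named with values are the first, last and C-type genes and those with the highest and lowest mean TSS strand bias of each subcluster and flank, and 6 others where the text says that their values had been seen. Members and lists were chosen with earlier results of these data known. Computation used Python 3.11.15, NumPy 2.4.6 and SciPy 1.17.1, and was tested on simulated data. No sequence of the region is printed.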

Additional observations from a re-analysis of the deposited data

Results flagged for a closer look

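In 3 places the EpiLC minus naive difference of a mutant differed from that of the control with an interval without 0. In Pcdhg the state difference was -17.3 points in dKO and -6.40 in the control, a difference of -10.9 (-19.0 to -2.62). In the gap between Pcdha and Pcdhb it was 16.2 in dKO and -3.59 in the control, a difference of 19.8 (4.72 to 34.1), which rests on 100 reads in naive dKO. On the right flank it was 8.67 in dCD and 1.36 in the control, a difference of 7.31 (2.39 to 12.2). These are 3 of 14 such differences over the subclusters, gaps and flanks, and the intervals were not widened for their number. All 3 kept their direction and an interval without 0 after the T minus A correction (-10.5, 19.5 and 7.27), after thinning to the smallest library (-12.1, 27.4 and 6.64) and after division by the amplitude (-11.2, 19.9 and 7.24), alternatives chosen after seeing the data. With only the nearer 250 kb of the right flank, also added after seeing the data, its difference was 1.41 (-5.41 to 8.23) and the interval included 0. The settings without bins of member exons and from first to last TSS are not given for the Pcdhg difference. Without those bins the interval of the naive dKO difference from the control in Pcdhg, on which it partly rests, included 0.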

How the results depend on the processing

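Of 147 values of the 21 differences over the subclusters under 7 other settings, 108 kept their direction and their side of 0, 26 came to include 0, 5 came to exclude it and 8 turned sign, each of the 8 at a difference whose interval already included 0. Centring on the whole library changed none of the 21, and keeping the outlier bins could not change them, since none lies in the region. The state differences of Pcdhg in dKO and dCD kept direction and side of 0 under all 7. On the flanks 6 values came to include 0 and 3 to exclude it. The 6 are those of EpiLC dKO on the left (2.30 after the T minus A correction and 4.33 after thinning) and on the right (-0.871 with flanks of 250 kb), and the control between states on the left (-1.83 after the T minus A correction, -2.29 after division by the amplitude and -4.35 with flanks of 250 kb). In the values that follow, losses and gains are those of the subclusters, a state difference is EpiLC minus naive and a mutant one is mutant minus control, in percentage points. After the T minus A correction, the interval came to include 0 for Pcdha (EpiLC dKO 3.71), Pcdhb (dKO between states 3.94, dCD between states 3.71) and Pcdhg (control between states -5.61, naive dKO 7.1). After the T minus A correction, the sign turned for left flank (naive dCD 0.00808, EpiLC dCD -0.235). After thinning to the smallest library, the interval came to include 0 for Pcdha (EpiLC dKO 2.96, EpiLC dCD 3.28), Pcdhb (dKO between states 2.19, dCD between states 6.73) and Pcdhg (control between states -6.78, naive dKO 6.88, EpiLC dCD -4.73). After thinning to the smallest library, the interval came to exclude 0 for Pcdha (dCD between states -6.89) and Pcdhb (control between states 9.4, EpiLC dKO -9.25). After thinning to the smallest library, the sign turned for left flank (naive dCD 0.446), Pcdha (dKO between states -1.89), Pcdhg (naive dCD -0.131) and right flank (EpiLC dCD -0.385). After division by the amplitude, the interval came to include 0 for Pcdha (naive dCD 2.67, EpiLC dKO 3.4, EpiLC dCD 1.83), Pcdhb (dKO between states 2.81, dCD between states 1.72, EpiLC dCD -1.51) and Pcdhg (EpiLC dCD -1.49). After division by the amplitude, the sign turned for left flank (dKO between states 0.421, EpiLC dCD -0.595) and Pcdha (control between states 0.736, dCD between states 0.565). As the mean over 25 kb windows, the interval came to include 0 for Pcdhb (dKO between states 5.05) and Pcdhg (control between states -4.52). As the mean over 25 kb windows, the interval came to exclude 0 for Pcdha (dCD between states -6.14) and Pcdhb (naive dCD -7.63). As the mean over 25 kb windows, the sign turned for left flank (naive dCD 1.03), Pcdha (dKO between states -1.05) and right flank (EpiLC dCD -0.159). Without bins of member exons, the interval came to include 0 for Pcdhb (EpiLC dCD -3.21) and Pcdhg (naive dKO 3.59, EpiLC dCD -3.02). Without bins of member exons, the sign turned for Pcdha (dKO between states -1.42) and Pcdhg (naive dCD -0.853). From first to last TSS, the interval came to include 0 for Pcdha (naive dCD 6.75) and Pcdhg (control between states -3.18). From first to last TSS, the sign turned for Pcdha (dKO between states -1.52). With flanks of 250 kb, the sign turned for left flank (dKO between states 0.0867, naive dKO -0.488, naive dCD 0.0595) and right flank (control between states -6.22, dCD between states -4.81, naive dKO 0.49, naive dCD 0.976). The number of cluster windows passing became 0 (control between states), 2 (dKO between states), 1 (dCD between states), 1 (naive dKO), 0 (EpiLC dKO) and 2 (EpiLC dCD) of 18 with 99% intervals, where 6.07%, 3.65%, 8.20%, 2.37%, 3.17% and 6.22% of all windows passed. The number of cluster windows passing became 5 of 36 (dCD between states) and 6 of 36 (EpiLC dKO) with 25 kb windows, where 13.1% and 8.01% of all windows passed. The number of cluster windows passing became 1 of 9 (naive dKO) with 100 kb windows, where 10.2% passed. With 10 kb windows, the median TSS strand bias turned its sign in Pcdhg (naive control -1.35, naive dKO -0.699, naive dCD -2.72, EpiLC control -0.233, EpiLC dKO -0.436), Pcdha (naive dKO -0.392, naive dCD -6.67) and Pcdhb (EpiLC dKO -0.265). With 50 kb windows, the median TSS strand bias turned its sign in Pcdhb (naive control -1.21, EpiLC control -0.849) and Pcdha (EpiLC control 0.718, EpiLC dCD -1.08). With at least 20 reads on each side, the median TSS strand bias turned its sign in Pcdha (naive dCD -0.22). After the T minus A correction, the median TSS strand bias turned its sign in Pcdhb (naive control -2.61, EpiLC control -2.13, EpiLC dCD -1.13) and Pcdha (naive dKO -1.45).

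No paired analysis was possible because the 2 replicates of each condition are summed in the deposited tracks. For the same reason no setting leaves out a replicate. Depth limits the naive libraries most, with a mean of 34.5 to 41.7 reads per 25 kb against 108 to 129 in EpiLCs. The lost calls and turned signs under thinning come with fewer reads, and for the other settings the cause was not tested.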
